A study of Mus musculus with 39 samples.

Results

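Ferritin is the protein shell in which animal cells store iron. It is built from a heavy chain, Fth1, which oxidises ferrous iron so that it can enter the shell, and a light chain, Ftl1, which helps the iron mineral to form inside. Both mRNAs carry an iron-responsive element in the 5′ UTR, a hairpin that the iron regulatory proteins Aco1 and Ireb2 bind when iron is scarce, which blocks translation. The amount of mRNA is therefore only 1 layer of ferritin control, and tissues are known to differ in how much of each chain they make. In the liver, hepatocytes store iron and Kupffer cells, the resident macrophages, recycle it from aged red cells.

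Fth1 and Ftl1 were taken by gene symbol from a table of 10061 genes, and each had 1 transcript in it. Levels were read in 39 single cells, all of them 1 group in the labels. They were GFP+ cells from the liver of adult mice of genotype Krt19CreERT/Rosa26CAG-EGFP, separated by flow sorting and then picked individually into lysis buffer. Krt19, a keratin of bile duct epithelium, drives the inducible Cre, so by design green cells are those in which that Cre had acted and their descendants. Whether each of the 39 sorted cells belongs to that lineage was not tested. The labels gave no animal, age in weeks, sex, inducer dose, chase time, plate or run.

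The 3 hairpin sites that bear on iron storage and release are shown because both ferritin mRNAs and the mRNA of the iron exporter Slc40a1 share 1 control element. Each is a 30-base window of the annotated 5′ UTR in GRCm38, written as DNA on the transcript strand, with the hairpin loop in capitals.
Fth1: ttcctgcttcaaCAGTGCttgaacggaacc
Ftl1: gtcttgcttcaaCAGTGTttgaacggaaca
Slc40a1: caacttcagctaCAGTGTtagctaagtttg
The Fth1 site lies at chr19:9982732-9982761 on the plus strand, in a 5′ UTR of 224 bases. The Ftl1 site lies at chr7:45459778-45459807 on the minus strand, in a 5′ UTR of 253 bases. The Slc40a1 site lies at chr1:45925464-45925493 on the minus strand. The search pattern was a C, 5 bases, the loop CAGTGN and then 5 bases pairing with the first 5, with G-T pairs allowed, read on the transcript strand alone. It was found in 28 of 20561 genes with an annotated 5′ UTR of at least 17 bases (0.136%), and in 2 of the 100 other iron genes measured here, Slc40a1 and the erythroid haem enzyme Alas2. A match describes the letters, and binding was not measured.

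The deposited values were brought back to a linear scale, called CPM here, and a gene counted as detected at 1 CPM. A cell had between 1866 and 5298 genes detected, with a median of 2985. The worth of 1 read, inferred from the steps between low values, was 0.0241 to 0.273 CPM. The cells were grouped by 99 measured cell type markers without use of either ferritin chain. This gave 22 cholangiocyte-like cells, 6 hepatocyte-like cells, 7 cells with a mixture of mesothelial and fibroblast markers and 4 with blood cell markers. The last 2 groups were not given a cell type name, because markers of different types led them. Because the labels tie no cell to an animal, the cells cannot serve as replicates, and values are described as medians and ranges with no test between groups and no p-value.

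Both ferritin chains were detected in all 39 cells, which held for 71 of 10061 genes (0.706%). The median of Fth1 was 2404 CPM, with cell 17 lowest at 2.34 CPM and cell 5 highest at 27358 CPM. The median of Ftl1 was 2023 CPM, with cell 16 lowest at 1.62 CPM and cell 33 highest at 21129 CPM. The chains had similar medians, and Fth1 had more cells at both the low and the very high end. Fth1 reached 1000 CPM in 25 cells and 10000 CPM in 5. Ftl1 reached 1000 CPM in 33 cells and 10000 CPM in 1.

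The heavy chain varied more between cells than the light chain. The SD over cells of log2(CPM + 1) was 3.34 for Fth1 and 1.97 for Ftl1. Among the 71 genes detected in every cell, counted from the least variable, Fth1 ranked 69 and Ftl1 27, and the median SD of those genes was 2.22. The sum of both chains had an SD of 1.42, lower than either, with a median of 5149 CPM and a range of 229 to 45333 CPM. The log2 difference between the chains within a cell had an SD of 3.73, larger than that of either chain. The log2 of a sum follows the larger chain of each cell, so its SD can be lower without any link between them. Whether the chains offset each other was not tested.

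**Figure D1:**
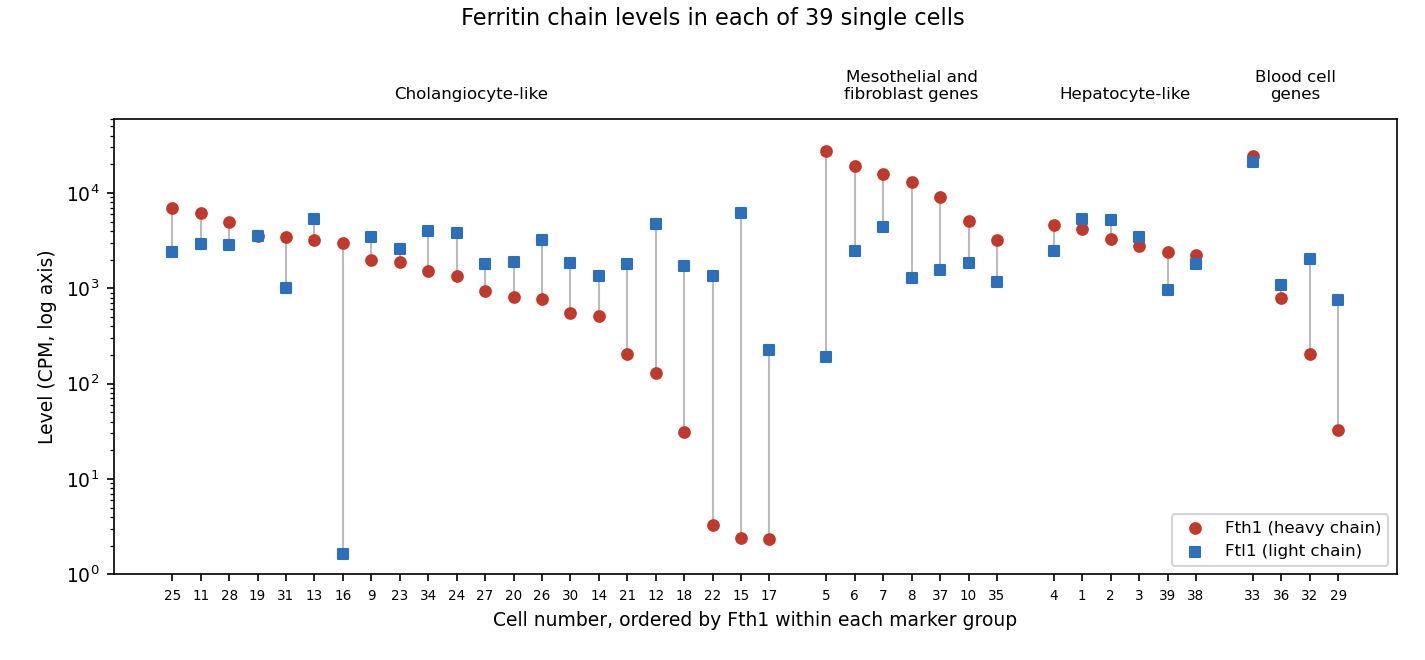
Fth1 (red circles) and Ftl1 (blue squares) in each of 39 cells, in CPM on a log axis, with cells arranged by marker group and by Fth1 within it; a grey line joins the chains of a cell. Fth1 lies above Ftl1 in all 7 cells with mesothelial and fibroblast genes, and falls to 2.34 CPM among the cholangiocyte-like cells, where Ftl1 mostly stays above 1000 CPM.

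Heavy chain medians differed between the marker groups, with the highest in the 7 cells of mesothelial and fibroblast genes. Their lowest Fth1 was 3198 CPM (cell 35), the median 12986 CPM and the highest 27358 CPM (cell 5). In cell 5 this 1 gene made up 2.60% of all CPM. The 6 hepatocyte-like cells were the tightest, from 2254 to 4584 CPM with a median of 3026 CPM. The 22 cholangiocyte-like cells spread from 2.34 to 7000 CPM with a median of 1141 CPM and an interquartile range of 279 to 3182 CPM. In the 4 cells with blood cell genes, Fth1 was 33.0, 203, 796 and 24204 CPM.

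In the 7 cells of mesothelial and fibroblast genes the median of Fth1 was 11.6-fold that of the cholangiocyte-like cells, a log2 difference of 3.53. All 7 lay above the cholangiocyte-like median and 5 lay above every cholangiocyte-like cell. Of the 22 cholangiocyte-like cells, 6 were at or above the lowest of the 7. Of all genes, 12.5% were at least 4-fold higher and 1.76% at least 4-fold lower in the same comparison, and 8.29% had a larger difference than Fth1. Against the hepatocyte-like cells the median was 4.31-fold higher, and 6 of the 7 lay above all 6 hepatocyte-like cells, in a comparison where 11.7% of genes were at least 4-fold higher. In these 7 cells the mesothelial list had 3 to 9 of 9 measured members at 100 CPM and the fibroblast list 2 to 5 of 11. The cholangiocyte list had 0 to 5 of 18, and the macrophage list 0 or 1 of 10.

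The hepatocyte-like median of Fth1 was 2.68-fold that of the cholangiocyte-like cells, a log2 difference of 1.42. All 6 hepatocyte-like cells lay above the cholangiocyte-like median, none lay above every cholangiocyte-like cell, and 7 of 22 cholangiocyte-like cells were at or above the lowest of the 6. The groups overlapped, in a comparison where 15.9% of all genes were at least 4-fold higher and 3.98% at least 4-fold lower. The size of the difference depended on the scale of each cell. With every cell rescaled to the same sum it was 2.28, past the 4-fold line. The median log2 rescaling factor alone was 0.77 higher in the hepatocyte-like cells. The share of all genes past 4-fold on that scale is not given here. Hepatocyte markers were also present outside the hepatocyte-like group: 10 of 22 cholangiocyte-like cells had at least 3 of them at 100 CPM, and the summed list ran from 238 to 39329 CPM there. Their part in the ferritin values was not tested.

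Light chain medians differed by less than 2-fold across the marker groups. Hepatocyte-like cells had 949 to 5335 CPM of Ftl1 (median 2952 CPM), and cholangiocyte-like cells 1.62 to 6117 CPM (median 2480 CPM). In cells of mesothelial and fibroblast genes Ftl1 was 189 to 4443 CPM (median 1540 CPM). The 4 cells with blood cell genes had 745, 1092, 2023 and 21129 CPM. Every group overlapped every other. The hepatocyte-like minus cholangiocyte-like difference in log2 medians was 0.23. The cells of mesothelial and fibroblast genes, highest in Fth1, had a log2 difference of -0.69 in Ftl1 against the cholangiocyte-like cells, and 2 of the 7 lay above the cholangiocyte-like median. Both comparisons use the same 22 cholangiocyte-like cells.

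Levels of different genes were compared per kilobase, with transcript lengths of 929 bases for Fth1 and 968 bases for Ftl1 from GENCODE. The share of Fth1 in the sum of both chains per kilobase had a median of 43.4% over all cells. In the cells of mesothelial and fibroblast genes it was 73.9% to 99.3%, with a median of 86.1%. In the hepatocyte-like cells it was 39.5% to 72.5%, with a median of 51.2%. The cholangiocyte-like cells covered nearly the whole scale, from 0.0410% to 99.9%, with a median of 29.7%. The lowest share among the 7 cells with mesothelial and fibroblast genes was 73.9% (cell 10). It lay just above the highest hepatocyte-like one, 72.5% in cell 39, where depth is uncertain. How often other gene pairs separate these groups was not examined.

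Counted by cell, Fth1 exceeded Ftl1 per kilobase in 17 of 39 cells. These were 7 of 7 cells with mesothelial and fibroblast genes, 3 of 6 hepatocyte-like, 6 of 22 cholangiocyte-like and 1 of 4 with blood cell genes. The chains lay within 2-fold of each other in 5 of 6 hepatocyte-like cells and in 6 of 22 cholangiocyte-like cells. Ftl1 was at least 4-fold above Fth1 in 9 cells, 7 of them cholangiocyte-like and 2 with blood cell genes. Fth1 was at least 4-fold above Ftl1 in 5 cells, 4 of them in the group of 7 and 1 cholangiocyte-like.

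**Figure D2:**
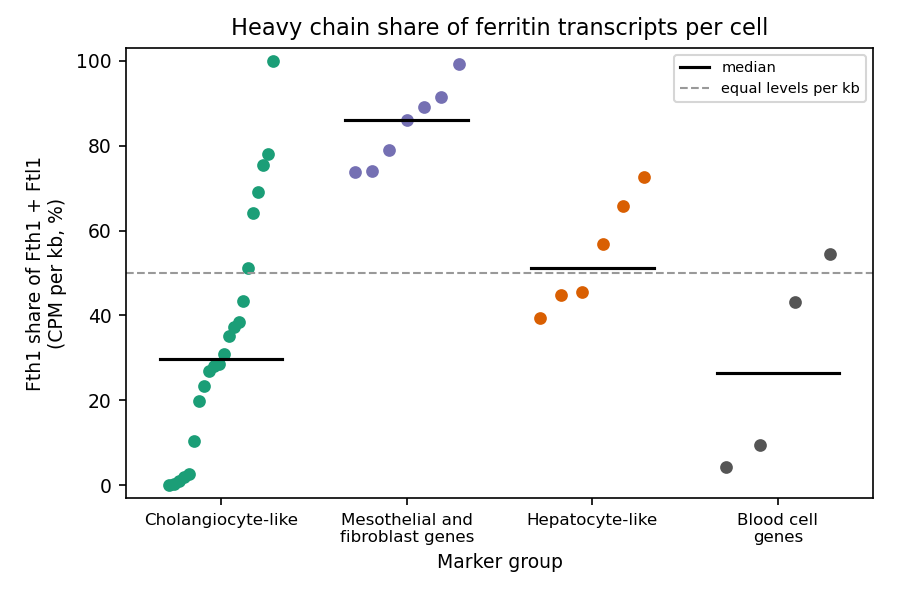
Share of Fth1 in the sum of Fth1 and Ftl1, in percent of CPM per kilobase, with 1 point per cell, sorted within each marker group; bars are group medians and the dashed line marks equal levels. Medians are 29.7% in cholangiocyte-like cells, 86.1% in cells with mesothelial and fibroblast genes, 51.2% in hepatocyte-like cells and 26.3% in cells with blood cell genes.

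The 2 chains were only weakly related from cell to cell. Their Spearman correlation was 0.15 over 39 cells, and leaving out any 1 cell gave 0.09 to 0.24. Within groups the value depended on the scale of each cell. It was 0.18 as deposited and 0.03 with cells rescaled to the same sum in the 22 cholangiocyte-like cells. In the 7 cells of mesothelial and fibroblast genes it was 0.07 and -0.04, and in the 6 hepatocyte-like cells 0.60 and -0.43, so that the sign changed with the scale in these groups. Both chains of a cell share a library and a scaling factor. Over all cells, Fth1 had a correlation of 0.26 with the number of genes detected and 0.03 with the summed CPM of the cell. For Ftl1 these were 0.02 and 0.33.

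**Figure D3:**
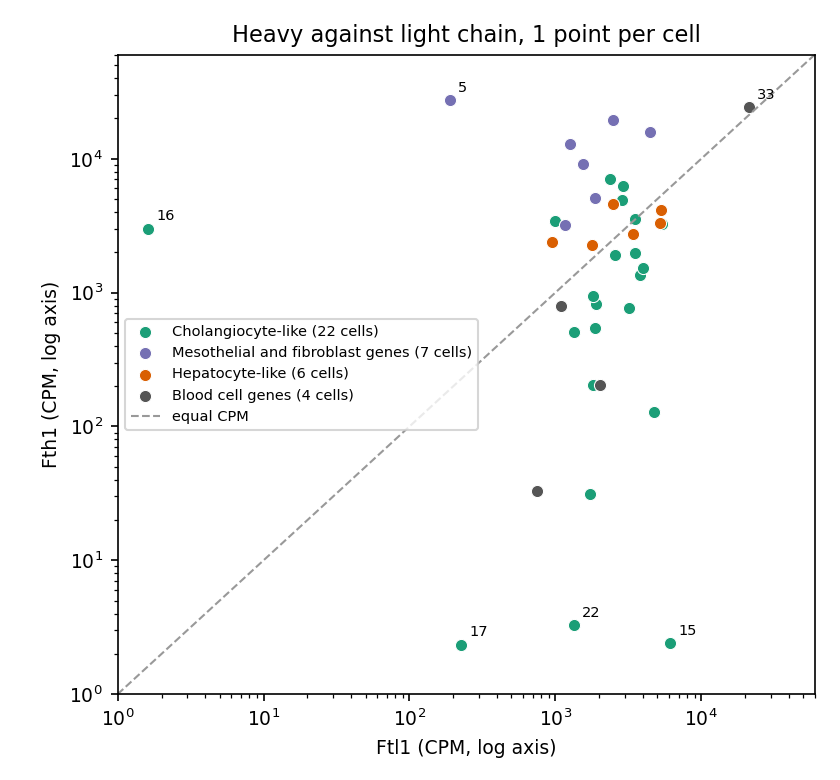
Fth1 against Ftl1 in CPM, both axes logarithmic, with 1 point per cell coloured by marker group and the dashed line at equal CPM. Cells 15, 17 and 22 sit near 3 CPM of Fth1, cell 16 sits at 1.62 CPM of Ftl1, and cell 33 is high in both chains.

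A few cholangiocyte-like cells held almost none of 1 chain. Fth1 was 2.41 CPM in cell 15, 2.34 CPM in cell 17 and 3.27 CPM in cell 22, where Ftl1 was 6117, 226 and 1335 CPM. In cell 16 the chains were the other way round, with Ftl1 at 1.62 CPM and Fth1 at 3008 CPM. Each of these values rested on few reads. By the inferred worth of a read, Fth1 had about 19.9 reads in cell 15 (exact Poisson 95% interval 12.2 to 30.8), 15.9 in cell 17 (9.07 to 25.9) and 18.9 in cell 22 (11.4 to 29.5). Ftl1 in cell 16 had 13 reads (6.92 to 22.2). The Fth1 values in cells 15, 17 and 22 were not whole numbers of reads. The intervals cover counting error only.

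The partner chain had 50586 reads in cell 15, 1535 in cell 17 and 7717 in cell 22 (Ftl1), and 24208 in cell 16 (Fth1). Cells 17, 15 and 16, in that order, were also the 3 of 39 with the fewest genes detected, at 1866, 2050 and 2105, while cell 22 had 2635. In each of the 4 cells, 4 of 12 housekeeping genes were under 10 CPM, and no other of the 39 cells had as many. Of 24 other genes with a median of at least 1000 CPM over all cells, 3 were under 10 CPM in each of cells 15, 17 and 22 and 5 in cell 16, with a median of 1 and a range of 0 to 5 over the 22 cholangiocyte-like cells. Over all 39 cells, marker groups together, 18 of the 24 (75%) were under 10 CPM in at least 1 cell and 10 (41.7%) in at least 3 cells. No other cholangiocyte-like cell had 3 or more of the 24 under 10 CPM. Within the 22 cholangiocyte-like cells, the Spearman correlation of this count with Fth1 was -0.36 and with Ftl1 -0.21. Over all 39 cells it was -0.01 and -0.24. The part of library quality in the low ferritin values was not tested. Without cells 15, 16 and 17 the SD of the log2 difference between chains was 2.81.

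**Figure D4:**
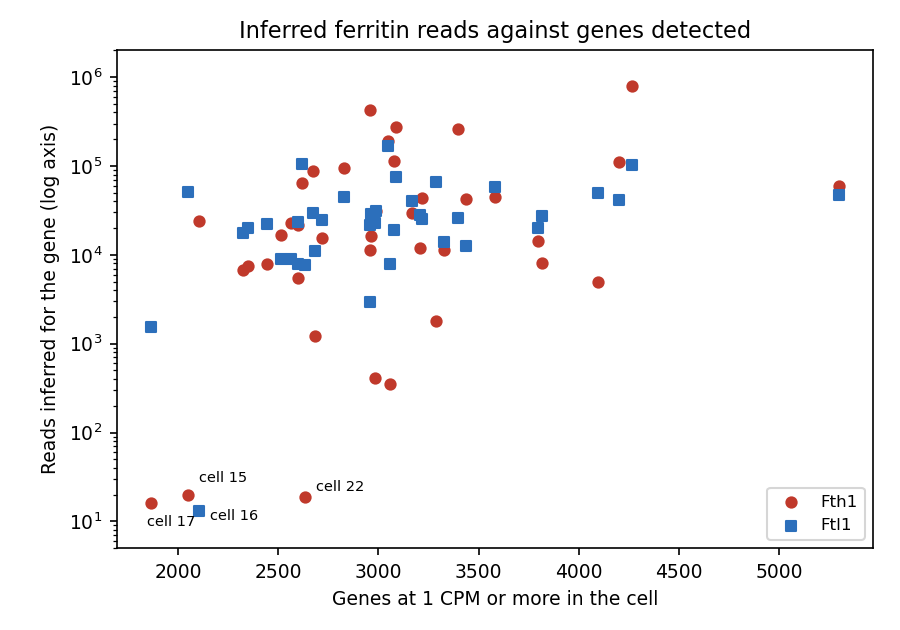
Inferred reads of Fth1 (red circles) and Ftl1 (blue squares) on a log axis against the number of genes at 1 CPM or more, with 1 point per chain and cell. The 4 values under 100 reads belong to cells 15, 16, 17 and 22, of which cells 15, 16 and 17 have the fewest genes detected.

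Cell 33 had both chains high, with 24204 CPM of Fth1, second to cell 5, and 21129 CPM of Ftl1, the highest of 39. Fth1 was 1.71% and Ftl1 1.49% of its summed CPM. This cell had Kupffer cell genes: Clec4f, a Kupffer cell lectin, was at 4341 CPM, Cd5l at 8957 CPM, the complement gene C1qb at 7889 CPM and Csf1r at 3407 CPM. Of 10 measured macrophage markers 9 reached 100 CPM, and Cd14 was the exception at 1.01 CPM, while 12 other cells had it at 100 CPM. Csf1r reached 100 CPM in 4 other cells, with up to 2579 CPM. C1qa, C1qb, C1qc and Cd5l stayed under 100 CPM in the other 38 cells. The other members of its group had granulocyte precursor genes, and Elane, a granule protease that was at 42.9 CPM in cell 33, reached 43187 CPM in 1 of them. Their Ftl1 levels were 745 to 2023 CPM.

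Some other iron genes stood high in cell 33 as well, while most of the 100 measured were highest in another cell. Slc40a1, ferroportin, which carries iron out of cells, was at 6029 CPM, the highest of 39 cells. Tfrc, the transferrin receptor, was at 1298 CPM, Lrp1, a scavenger receptor for haem bound to haemopexin, at 2124 CPM, and Blvrb, a biliverdin reductase, at 1683 CPM. Each of these 3 was also at its highest there. Tfrc reached 100 CPM in 2 further cells, both cholangiocyte-like, and Slc40a1 in 5 further cells, among them cell 26 at 4500 CPM. The antioxidant gene Gclm, at 1018 CPM, was highest in cell 33 too. Other iron genes were low there, among them Hp at 1.63 CPM, Cp at 1.04 CPM, Lcn2 and Mt2 at 0.126 CPM each, and Aco1 and Slc39a14 listed at 0. The genes named here were singled out after their values were seen, and they describe 1 cell.

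Genes that load ferritin and break it down were compared next. Pcbp1 is a chaperone that brings iron to ferritin, and Ncoa4 is the receptor that takes ferritin to the lysosome. Of 7 measured genes, 3 were at least 4-fold higher in the cells of mesothelial and fibroblast genes than in cholangiocyte-like cells. None was 4-fold lower. Of all genes, 12.5% were higher and 1.76% lower by this rule. The 3 were Pcbp1, Ncoa4 and Herc2, the ubiquitin ligase that acts on Ncoa4. Herc2 had a median of 15.1 CPM and was detected in 4 of the 7 cells with mesothelial and fibroblast genes. Ncoa4 had a median of 777 CPM there (46.4 to 2655 CPM) against 0.00148 CPM, less than 1 read, in cholangiocyte-like cells, where 4 of 22 reached 100 CPM. Pcbp1 had a median of 458 CPM against 31.9 CPM. Ncoa4 was highest in cells 5, 6 and 8 of the 7, which are also among the 4 of them with the most Fth1. Over all 39 cells Ncoa4 was highest in cell 29, at 3736 CPM, where Fth1 was 33.0 CPM. Cell 25, with the most Fth1 of the cholangiocyte-like cells (7000 CPM), had 1.46 CPM of Ncoa4. Over all 39 cells the Spearman correlation of Pcbp1 with Fth1 was 0.45, and 0.41 with cells rescaled to the same sum. That of Ncoa4 or Herc2 with either chain was not computed. In hepatocyte-like cells Ncoa4 (46.7 CPM), Pcbp1 (175 CPM) and Tbc1d15 (4.49 CPM) were past the 4-fold line, where 15.9% of all genes were higher. Pcbp2, a second iron chaperone, was lower at 24.6 CPM against 97.9 CPM, where 3.98% of all genes were lower.

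Iron uptake genes were mostly at low levels. Of 11 measured, 4 were higher in hepatocyte-like cells, beside 15.9% of all genes: Tfr2, a transferrin receptor of hepatocytes that senses iron (17.0 CPM), the metal importer Slc39a14 (37.5 CPM), the metalloreductase Steap4 (126 CPM) and Lrp1 (110 CPM). In the cells of mesothelial and fibroblast genes 2 were higher, the metal importer Slc39a8 (57.7 CPM) and Lrp1 (80.4 CPM), which is near the 12.5% of all genes. The same shares of all genes stand beside the counts of the lists that follow. Lcn2, which binds iron-laden siderophores, was lower there, at 5.30 CPM against 208 CPM in cholangiocyte-like cells. The metalloreductases Cybrd1 and Steap2 were detected in the most cells, 34 and 28.

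On the export side, cholangiocyte-like cells led in Cp, ceruloplasmin, the copper oxidase that works beside ferroportin. Its median was 1278 CPM in those cells, 200 CPM in hepatocyte-like cells and 68.7 CPM in the cells of mesothelial and fibroblast genes. App, the amyloid precursor protein, which has been linked to iron release, reached a median of 481 CPM in cells of mesothelial and fibroblast genes, 28.0 CPM in cholangiocyte-like cells and 0.319 CPM in hepatocyte-like cells. Among 6 genes of the iron regulatory proteins and their degradation, Rbx1, a ubiquitin ligase subunit, was past 4-fold in both comparisons. Aco1 and Ireb2, the proteins that bind the hairpins shown above, were not past it. Skp1a, a subunit of the same ligase type, was detected in 35 cells and Rbx1 in 22.

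Hamp, which encodes hepcidin, the hormone that closes ferroportin, and its relative Hamp2 were highest in hepatocyte-like cells. The Hamp median was 219 CPM over the 6 hepatocyte-like cells, and Hamp was listed at 0 at the median of each other group. Hamp2 (38.5 CPM), Tmprss6, a protease that restrains hepcidin (7.86 CPM), and the signal transducer Stat3 (58.0 CPM) were the other genes of 16 that were higher there. In the cells of mesothelial and fibroblast genes, Stat3 (386 CPM) and the bone morphogenetic protein receptors Bmpr1a (94.5 CPM) and Bmpr2 (18.0 CPM) were higher than in cholangiocyte-like cells.

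Haem genes were higher in hepatocyte-like cells in 7 of 13 cases. Hp, haptoglobin, which binds free haemoglobin, had a median of 2361 CPM there and 1790 CPM in cells with blood cell genes, and was listed at 0 at the median of the remaining groups. The haem synthesis enzymes Alas1 (25.9 CPM), Alad (37.2 CPM) and Fech (113 CPM), the reductase Blvrb (30.3 CPM), the exporter Abcg2 (7.06 CPM) and the haem-binding protein Hebp1 (3.85 CPM) made up the others. Alad was the 1 haem gene past 4-fold in the cells of mesothelial and fibroblast genes, at 113 CPM. Of the genes measured, Hp was detected in 20 cells and the synthesis enzyme Cpox in 18.

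Mitochondrial iron genes were past the line in hepatocyte-like cells in 8 of 18 cases. Cisd1, an iron-sulphur protein of the outer mitochondrial membrane, had a median of 126 CPM there, and the electron carrier Fdx1 had 101 CPM. The cluster assembly genes Iscu, Nfs1, Isca1, Glrx5 and Bola3 and the chaperone Hspa9 lay between 10.3 CPM (Nfs1) and 43.4 CPM (Isca1). Lyrm4, a small partner of Nfs1 detected in 37 cells, was lower, at 1.12 CPM against 19.3 CPM in cholangiocyte-like cells. Hspa9 was the single gene of the 18 past the line in the cells of mesothelial and fibroblast genes, at 8.80 CPM.

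Antioxidant genes linked to NRF2, the factor that also acts on ferritin genes, were higher in hepatocyte-like cells in 14 of 24 cases. Sod1, the cytosolic superoxide dismutase, had a median of 2313 CPM there against 19.7 CPM in cholangiocyte-like cells. Cat, catalase, had 1727 CPM against 22.8 CPM, and the metallothionein Mt2 had 1582 CPM against a median listed at 0. The others were Gstm1, Gpx4, Sod2, Mt1, Txn1, Sqstm1, Gsta4, Me1, Txnrd1, Gclc and Gclm. Prdx1, a peroxidase detected in all 39 cells, went the other way, at 523 CPM against 2562 CPM. In the cells of mesothelial and fibroblast genes Txn1 (131 CPM), Mt2 (23.8 CPM) and Sod2 (54.3 CPM) were higher and Cat (0.596 CPM) was lower.

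In all, 41 of 98 iron genes that were not markers (41.8%) were at least 4-fold higher in hepatocyte-like than in cholangiocyte-like cells, where 15.9% of all genes were, and 5 were lower, where 3.98% of all genes were. With a pseudocount of 10 CPM the 41 became 23, and with cells rescaled to the same sum the 5 became 2. The median log2 difference was 0.89 for these genes and 0 for all genes. In the cells of mesothelial and fibroblast genes, 15 of 98 (15.3%) were higher, beside 12.5% of all genes, and 3 were lower, beside 1.76%. These 3 became 7 with a pseudocount of 0.1 CPM. Neither ferritin chain was past the 4-fold line in the hepatocyte-like cells as deposited, while Fth1 was past it in the cells of mesothelial and fibroblast genes. Many of these medians rest on genes listed at 0 in most cells, and a 0 in this table need not mean absence.

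**Figure D5:**
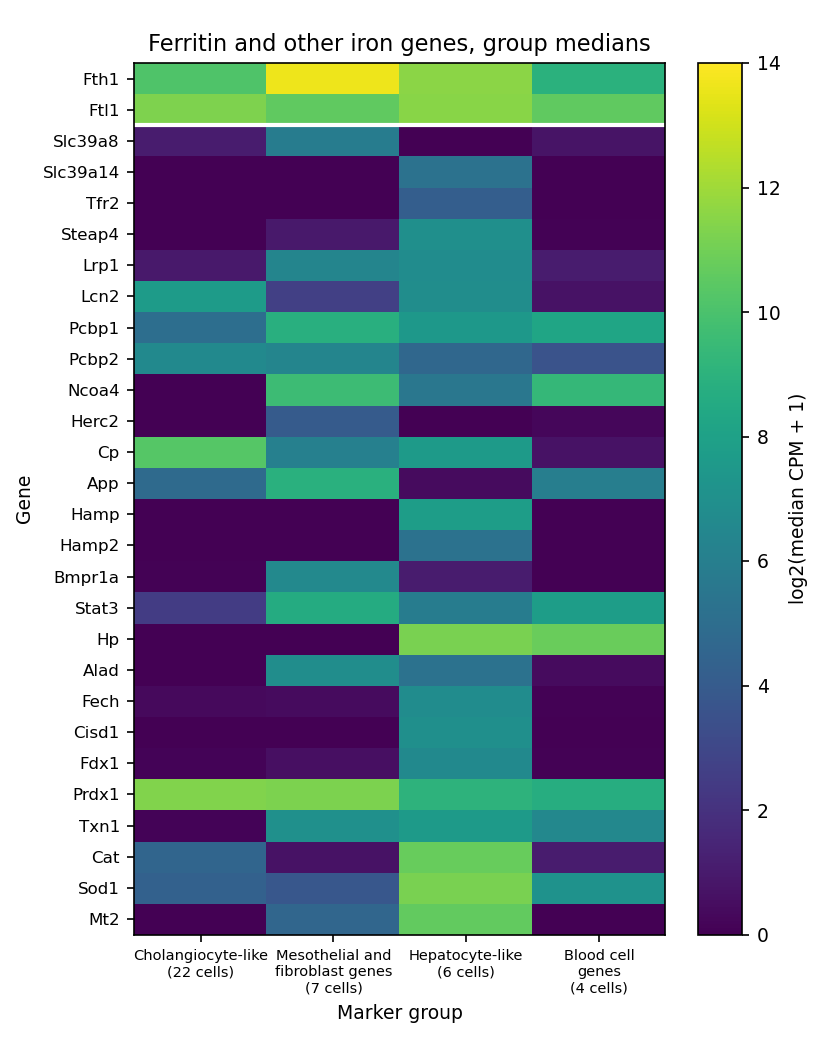
Group medians of Fth1, Ftl1 and 26 of the other iron genes past 4-fold in a comparison, as log2(median CPM + 1), with marker groups in columns and genes in rows; the white line sets the ferritin chains apart. Fth1 is highest in the cells with mesothelial and fibroblast genes, Cp in cholangiocyte-like cells, and Hamp, Cat and Sod1 in hepatocyte-like cells.

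The genes whose pattern was most like that of ferritin were sought among 550 genes detected in at least 30 cells, by Spearman correlation with the mean of both chains on the log2 scale. The highest was Nme2, a nucleoside diphosphate kinase, at 0.64 over 39 cells, and 95% of the genes were below 0.41. Cox6b1 (0.58) and Ndufa4 (0.47) belong to respiratory complexes, Gabarap (0.56) acts in autophagy, and Gnb2l1 (0.53), Rpl38 (0.50) and Rplp1 (0.49) belong to or bind the ribosome. Pcbp1, the iron chaperone described above, was at 0.52, Prdx1 at 0.46 and the transcription factor Nfia at 0.45. After each cell was rescaled to the same sum, 3 of these 10 were again among the first 10. All points share the scaling factor of their cell.

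Within the 22 cholangiocyte-like cells 95% of 608 genes were below 0.47. Among the first 10, Eif5, Eef2, Rplp0, Rplp1 and Gnb2l1, all of translation, lay between 0.60 (Gnb2l1) and 0.66 (Eif5). The phosphatase Ptp4a2 (0.64), the mitochondrial superoxide dismutase Sod2 (0.63) and the nuclear protein Nucks1 (0.61) were also among them. Of the first 10, 8 were again there after rescaling.

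In the GENCODE annotation, the light chain transcript shared more sequence with other genes than the heavy chain transcript did. Of the 919 stretches of 50 bases in the Ftl1 transcript, 78.9% also occur in transcripts of 15 other annotated genes, none of which is in the deposited table. For Fth1, 6.59% of 880 stretches occur in 1 other gene. The 2 chains share none with each other. Reads from Ftl1 copies could be counted as Ftl1 or be lost, so its absolute level is uncertain. The reference that the authors aligned to was not searched. Ferritin values that were not whole numbers of reads were more often of Fth1 than of Ftl1. The part of shared reads in them was not tested.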

How the data were processed

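The authors deposited 1 table of log2 values for 13568 transcripts under 10061 gene symbols in 39 cells. The submitters' processing notes name Bowtie 0.12.9, eXpress 1.5.1, edgeR and the build mm9, and their order and settings are not given in the sources used here. The shared lowest log2 value of -2.58 (0.167 on a linear scale) was read as no reads. It was subtracted after raising 2 to each value, and transcripts were summed per symbol. The resulting unit, called CPM, was inferred from the values. Cells summed to between 351255 and 3128332 CPM and were used as deposited. The plan had assumed counts or a linear unit, so its form for normalised values was applied to the back-transformed ones, and no count model was fitted.

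The worth of 1 read was taken from the commonest low values, with a median of 12.0 reads per CPM. Of 78 ferritin values, 69 came out within 0.01 of a whole number of reads. The others were Fth1 in cells 15, 17, 22, 33, 38 and 39 and Ftl1 in cells 1, 2 and 39. Depth in cells 38 and 39 is uncertain. Without molecular identifiers, several reads can stem from 1 molecule.

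For the marker groups, log2(CPM + 1) of 99 of 157 listed markers was reduced to 10 principal components and clustered by Ward linkage, with 2 to 6 clusters compared by silhouette (0.477 for 4). Groups were compared by medians, with a 4-fold size rule and a pseudocount of 1 CPM. No cell was removed and no doublet caller was run. The members, gene lists and rules were chosen with earlier results of these data known. The text names every listed iron gene past 4-fold, the 2 detected in the most cells per list, and the 10 genes most like the mean of both chains. A few genes that these rules name are not reported here. Fold rule and likeness ranking were tested on simulated data. Sequences and transcript lengths are from GRCm38 with GENCODE M21, which is not the build of the notes. Python 3.11.15, numpy 2.4.6, pandas 2.3.3, scipy 1.17.1 and scikit-learn 1.9.0 were used. Alternatives covered the scale of each cell, the pseudocount, the fold rule, the clustering and leaving out cells.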

Additional observations from a re-analysis of the deposited data

Results flagged for a closer look

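Among the 7 cells with mesothelial and fibroblast genes, cell 5 stood apart from the other 6 by Dixon's ratio of gap to range. For Ftl1 on the log2 scale it was the lowest, with 189 CPM and a ratio of 0.577 against a 95% critical value of 0.568. For the log2 difference of Fth1 minus Ftl1 it was the highest, at 7.17, with a ratio of 0.666. The same cell had the highest Fth1 of all 39 cells, and its Ftl1 rested on 2929 inferred reads. The ratio treats the cells as independent, which the labels do not show, so it describes these 7 cells alone. Chance marks about 1 in 20 groups, and 3 quantities were examined in each of 3 groups.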

How the results depend on the processing

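Of 87 alternatives, 9 moved a value past its tolerance or a count by more than 1.5 times. For medians and their differences the tolerance was the SD of single cells. That SD is wide, so staying within it is a weak criterion for a median. For the correlation and the SD of the log2 difference it was the largest shift from leaving out 1 cell. Their leave-one-out values therefore could not count as moved. Reversal was looked for only in differences of group medians past 4-fold, and 0 were found. The Fth1 difference between hepatocyte-like and cholangiocyte-like cells, 1.42, ran from 1.16 (without the 3 cells with the fewest genes) to 2.53 (means in place of medians), and that of Ftl1, 0.23, from 0.18 to 0.99 (cells rescaled to the same sum). The SD of the log2 difference between chains, 3.73, was 3.26 with a pseudocount of 10 CPM and 2.81 without the 3 cells with the fewest genes, an alternative chosen after seeing the data (3.33 to 3.78 leaving out any 1 cell). The count of iron genes higher in hepatocyte-like cells, 41, was 23 with a pseudocount of 10 CPM. The count lower there, 5, was 2 with cells rescaled to the same sum, 3 with cells rescaled without Rn45s, Lars2 and Rorb, 10 with a pseudocount of 0.1 CPM, 2 with 10 CPM and 2 with an 8-fold rule. The count lower in cells of mesothelial and fibroblast genes, 3, was 7 with a pseudocount of 0.1 CPM. The cause was not tested. The Fth1 difference between those cells and cholangiocyte-like cells, 3.53, was 3.27 to 3.79 leaving out any 1 cell, and its alternatives were also chosen after seeing the data, as were those of Ftl1 (-0.83 to -0.55). Rescaling and other pseudocounts kept all 39 cells in the same marker groups. Average linkage gave 6 clusters with 24 of 39 in the best-matching ones, so the groups depend on the linkage. Average linkage is not among the 9, because only the number of clusters was compared. No group difference was recomputed with its clusters. No paired analysis was possible because the labels hold 1 group. Depth limits single low values.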

Other observations

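Taken singly, the chains had different nearest genes over 39 cells, a comparison added after seeing the data. Fth1 was most like Nme2 (Spearman 0.61), Wdr92 (0.53), the complement gene C3 (0.52), Cox6b1 (0.51) and the chaperone Calr (0.51), and 7 of its first 10 were again there after each cell was rescaled to the same sum. Ftl1 was most like Gm1821 (0.52), Tgoln1 (0.52), Gm20594 (0.49), Rpl38 (0.49) and Tpt1 (0.47), and 6 of its first 10 were again there. The correlation of each chain with the other, 0.15, was below the 95th percentile of the 550 genes ranked, 0.38 for Fth1 and 0.33 for Ftl1.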
